A study of Mus musculus with 2 samples.

Results

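The matrix metalloproteases (MMP), the ADAMTS proteases, the ADAMTS-like proteins and the tissue inhibitors of metalloproteases (TIMP) were compared between cells of the superficial zone (SFZ) of joint cartilage and costal chondrocytes (CC). Genes were taken by symbol. Of 18193 genes named on the array 42 belonged to these families, 18 *Mmp*, 15 *Adamts*, 5 *Adamtsl* and 4 *Timp* genes, measured by 78 probe sets. Both cell types came from ICR mice at postnatal day 4, SFZ cells from the joint surfaces of femur and tibia and CC from the ribs, and both were cultured in DMEM with 10% FBS. The labels name no altered gene and no added agent for either group. RNA of each cell type went onto 1 Affymetrix mouse genome array, and the sources used here do not say how many animals gave each RNA. With 1 array per cell type no difference has a replicate check, and the values are compared without a test or p-value.

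MMPs are zinc-dependent enzymes that are secreted or anchored in the cell membrane, are made as inactive precursors and cleave collagens, proteoglycans and other matrix proteins. ADAMTS enzymes share a zinc-dependent catalytic domain with thrombospondin repeats, and some of them cut aggrecan, the large proteoglycan of cartilage. ADAMTS-like proteins have the repeats but no catalytic domain, and several bind to fibrillin microfibrils. TIMPs bind to the active site of MMPs, and TIMP3 also inhibits ADAMTS enzymes. In cartilage, MMP13, ADAMTS4 and ADAMTS5 are best known for matrix breakdown in osteoarthritis, and MMP13 also for matrix removal at the growth plate.

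The values are MAS5 signals on a linear scale. Each comes from a probe set, several short oligonucleotides that match the 3′ end of a transcript. The background level of each array, the 95th percentile of 83 probe sets of chemosensory receptor genes, was 28.2 for SFZ cells and 26.2 for CC. Cartilage markers were measured on both arrays, such as *Col2a1* at 8251 in SFZ cells versus 9074 in CC, and the surface marker *Prg4* was at 323 and 73.6. *Gdf5*, a gene of joint-forming cells, was at 93.1 and 74.2, and *Actb* at 7578 and 9338. Markers of muscle, fat, connective tissue and macrophages were higher on the CC array. The summed signal of 10 skeletal muscle genes, all called in CC by the rule given below, was 292 for SFZ cells and 28977 for CC. It was 1014 and 10977 for 5 adipocyte genes, of which 4 were called in CC, 8565 and 19074 for 9 fibroblast genes, of which 6 were called, and 521 and 2321 for 12 macrophage genes, of which 5 were called. Of 7 endothelial genes none was called, and the sums were 111 and 255. By the same rule, 7.90% of all genes above background on at least 1 array were called in CC and 1.72% in SFZ cells. Of 15 cartilage genes 3 were called in SFZ cells, with sums of 93419 and 68785. Of 10 genes listed for the superficial zone, 1 was called in SFZ cells and 2 in CC, with sums of 3513 and 4957, so that list as a whole did not set SFZ cells above CC. The part of muscle, fat, connective tissue and macrophage cells in the differences below was not tested. In RNA of whole cultures, fewer cells of a type and less RNA per cell cannot be told apart.

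A gene was called higher in a cell type where its signal there was over 100 and its ratio to the other cell type was over 2, read on the brightest probe set of that gene by mean log2 signal. By this rule 10 of the 42 genes were higher in CC and none was higher in SFZ cells. The 10 were *Mmp2*, *Mmp3*, *Mmp13*, *Mmp14*, *Mmp23*, *Adamts4*, *Adamts5*, *Adamts10*, *Adamts12* and *Adamts15*. They made up 23.8% of the 42 genes, whereas 5.41% of all 18193 genes were called higher in CC and 1.18% higher in SFZ cells. Among genes above background on at least 1 array, the 10 were 32.3% of 31, against 7.90% of all 12464 such genes in CC and 1.72% in SFZ cells. Of the 78 probe sets 16 were called in CC, 20.5%, against 4.33% of all probe sets with 1 gene symbol, and none was called in SFZ cells, against 0.947%. The calls lay in the *Mmp* family, with 5 of 18 genes, and in the *Adamts* family, with 5 of 15. None of the 5 *Adamtsl* or 4 *Timp* genes was called.

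With signals raised to background, log2 ratios were taken as SFZ cells over CC. Their median was -0.55 for the 31 genes, -0.78 for 12 *Mmp* genes, -0.75 for 10 *Adamts* genes, -0.55 for 5 *Adamtsl* genes and -0.32 for the 4 *Timp* genes. Without *Timp4*, left out after its values were seen, the *Timp* median was -0.71. The median of all genes above background was -0.18, so ratios over the whole array lay toward CC. With 1 array per cell type, an offset in scaling and differences between the cells cannot be told apart here. After scaling to equal medians the median log2 ratios were -0.36 for the 31 genes and 0.01 for all genes, and after quantile normalization they were -0.34 and 0.05. Of the 31 genes 28 had the lower value in SFZ cells and *Mmp12* and *Timp3* had the higher value there, whereas 25 were lower with equal medians and 24 with quantile normalization. Of all genes above background, 66.7% were lower in SFZ cells as deposited, 49.3% with equal medians and 45.1% with quantile normalization. The genes that turned were *Mmp16*, *Adamts3* and *Adamtsl3* under both scalings and *Adamts1* under the second, at ratios of SFZ cells over CC from 1.01 to 1.12. *Timp4* has no usable direction, as its CC signal of 26.8 was barely over the CC background and its SFZ signal of 4.04 was under that of its array.

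**Figure D1:**
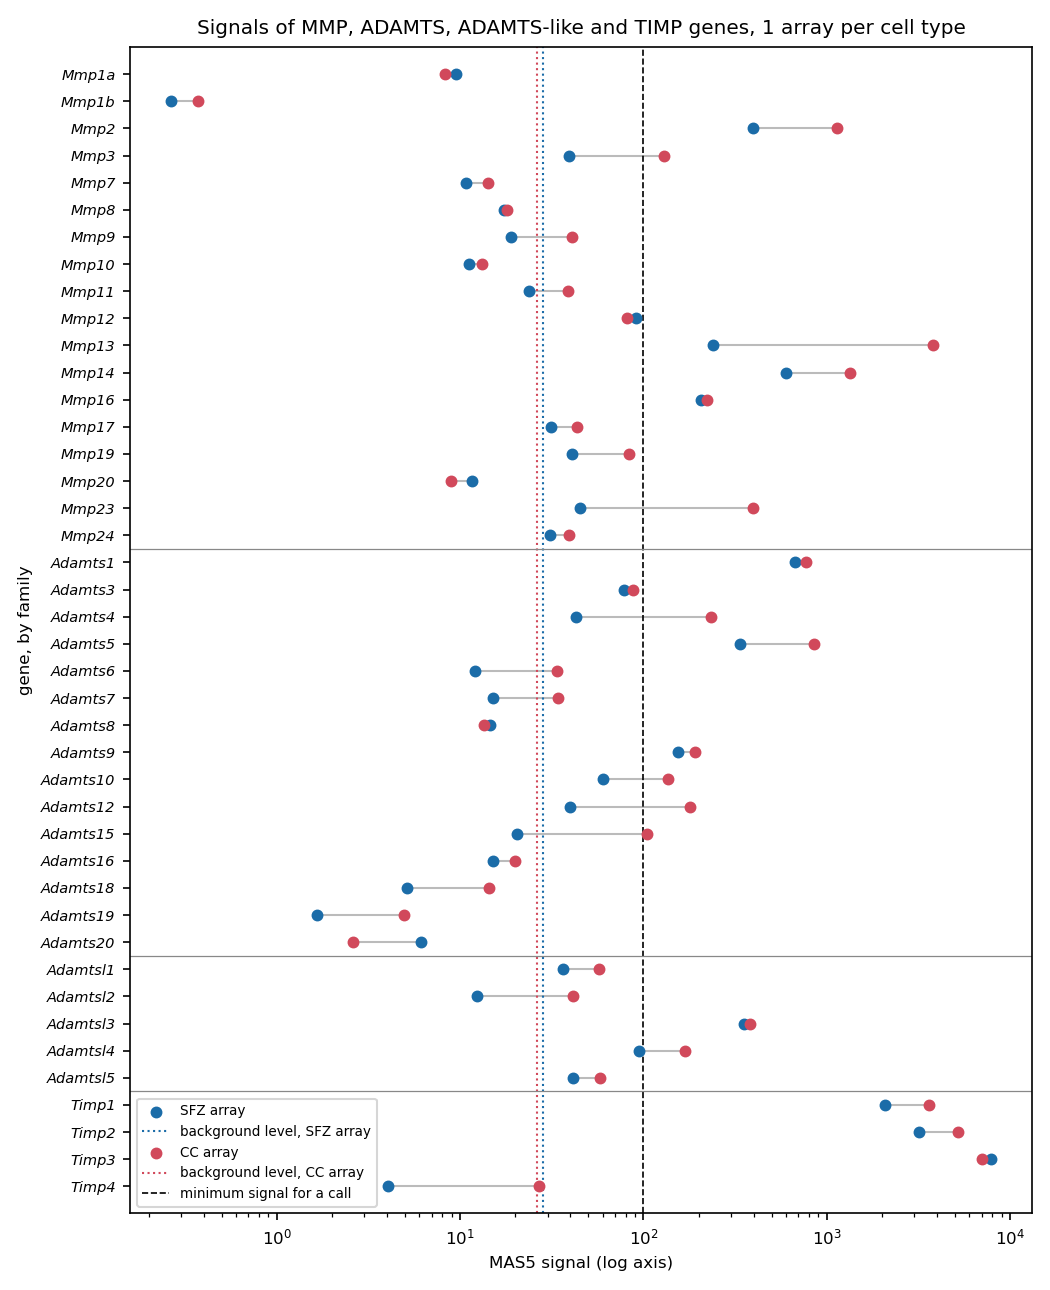
MAS5 signals of the 42 genes on a log axis, 1 probe set per gene, with 1 SFZ array and 1 CC array. Grey lines join the signals of a gene. The background of each array, 28.2 and 26.2, is dotted, and the minimum signal of 100 is dashed. The widest gap among genes above background on both arrays is that of *Mmp13*, 239 against 3784.

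No replicate gives an error here, and the spread of other genes is given in its place. Among 2945 genes above background on both arrays with a mean signal from 400 to 1600, the lowest 5% of the ratios lay at 2.04-fold or more toward CC and the highest 5% at 1.52-fold or more toward SFZ cells. The lower limit was 2.63-fold for mean signals from 26 to 100, 2.88-fold from 100 to 400 and 1.68-fold from 1600 to 12800. Of 24 member genes above background on both arrays, 9 lay beyond the limit toward CC and none lay beyond that toward SFZ cells. The 9 were all called genes other than *Adamts10* and *Adamts15*, and *Timp1*. This spread holds noise and true differences together.

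Among the collagenases, *Mmp13*, which cleaves type II collagen, had a signal of 239 in SFZ cells versus 3784 in CC. It was 15.9-fold higher in CC, measured by a single probe set. The interstitial collagenase genes *Mmp1a* and *Mmp1b* and the neutrophil collagenase gene *Mmp8* were under background on both arrays, with signals from 0.265 to 18.1. Beside *Mmp13*, genes of hypertrophic chondrocytes went both ways. *Vegfa*, of highest mean signal among the 6 measured, was at 829.6 in SFZ cells versus 549 in CC and was not called. *Col10a1*, the collagen of hypertrophic cartilage, was at 1254 in SFZ cells versus 126 in CC, 9.97-fold higher in SFZ cells. *Ibsp*, a bone matrix gene, had a CC signal of 375, at least 13.3-fold above SFZ cells, and the channel gene *Panx3* was at 158 and 347. *Alpl*, the phosphatase of mineralizing cells, was at 56.3 and 60.8, and *Ihh*, a signal of prehypertrophic cells, was at 31.5 in SFZ cells and 21.7, under background, in CC.

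*Mmp13* is the first of 10 MMP genes that follow each other on chromosome 9 in the RefSeq annotation of GRCm38.p6, in the order *Mmp13*, *Mmp12*, *Mmp1b*, *Mmp3*, *Mmp1a*, *Mmp10*, *Mmp8*, *Mmp27*, *Mmp20* and *Mmp7*. *Mmp27* had no probe set named for it alone. Of the other genes of the row, *Mmp3*, encoding stromelysin-1, was at 39.3 in SFZ cells versus 130.1 in CC, 3.31-fold higher in CC. With 64 added to both signals this ratio was 1.88, and the call was lost. *Mmp12*, the macrophage elastase gene, was at 91.2 and 81.1, a ratio of 1.12 toward SFZ cells. The remaining 6 measured genes, *Mmp1b*, *Mmp1a*, *Mmp10*, *Mmp8*, *Mmp20* and *Mmp7*, were under background on both arrays. The called genes *Mmp13* and *Mmp3* are not next to each other, and neither of the genes between them, *Mmp12* and *Mmp1b*, was called.

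The stretches before the start sites are shown for *Mmp13*, *Mmp3*, *Mmp10*, *Mmp1a*, *Mmp7* and *Mmp8*. These genes other than *Mmp8* share letters there but not their levels on the arrays. *Mmp12*, *Mmp1b* and *Mmp20* also have a promoter and are not shown. Each line gives 120 bases that end right before a RefSeq start site of GRCm38.p6. Capitals mark the AP-1 motif TGAGTCA or its reverse complement TGACTCA, the RUNX motif ACCACA or its reverse complement TGTGGT, and the TATA motif TATAAA, searched in the direction of transcription alone. Only matches that lie whole within a line are marked. A second TATA match of *Mmp7*, which began 123 bases before the start, runs over the left edge of its line and is unmarked.
*Mmp13*, chr9:7272394-7272513, plus strand: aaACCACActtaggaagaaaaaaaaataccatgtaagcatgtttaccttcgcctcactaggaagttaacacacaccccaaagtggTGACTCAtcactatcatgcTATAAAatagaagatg
*Mmp3*, chr9:7445702-7445821, plus strand: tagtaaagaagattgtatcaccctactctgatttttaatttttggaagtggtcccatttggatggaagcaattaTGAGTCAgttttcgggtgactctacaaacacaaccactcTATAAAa
*Mmp10*, chr9:7502222-7502341, plus strand: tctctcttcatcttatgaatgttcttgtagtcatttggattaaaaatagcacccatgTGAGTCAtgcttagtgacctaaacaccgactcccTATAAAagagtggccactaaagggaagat
*Mmp1a*, chr9:7464021-7464140, plus strand: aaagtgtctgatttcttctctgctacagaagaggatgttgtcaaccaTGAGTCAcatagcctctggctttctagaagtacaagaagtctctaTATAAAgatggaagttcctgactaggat
*Mmp7*, chr9:7691970-7692089, plus strand: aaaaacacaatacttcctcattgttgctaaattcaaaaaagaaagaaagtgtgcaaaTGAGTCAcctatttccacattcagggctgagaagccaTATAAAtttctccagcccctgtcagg
*Mmp8*, chr9:7558309-7558428, plus strand: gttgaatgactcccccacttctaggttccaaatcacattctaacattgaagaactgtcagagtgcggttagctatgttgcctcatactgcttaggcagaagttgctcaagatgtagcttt

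Promoters were found for 27 of the 42 genes, 30 in all, and the motifs were searched in the 250 bases before each start. The AP-1 letters were in 7 of the 30 promoters, 23.3%, against 4.46% of 32851 promoters of the same length. All 7 belonged to the MMP genes of chromosome 9, 1 promoter each of *Mmp13*, *Mmp12*, *Mmp1b*, *Mmp3*, *Mmp1a*, *Mmp10* and *Mmp7*. The TATA letters were in 9 of the 30 promoters, against 7.59% of all, and the RUNX letters in 5, 16.7%, against 14.0%. In *Mmp13* the RUNX letters began 118 bases, the AP-1 letters 35 bases and the TATA letters 16 bases before the start. In *Mmp3* the AP-1 letters began 46 bases and the TATA letters 7 bases before it. *Mmp10*, *Mmp1a* and *Mmp7*, under background on both arrays, held AP-1 and TATA letters too, and *Mmp8* held none of the 3 motifs. Of 5 genes called in CC that have a promoter, 2 held the AP-1 letters, and of 22 genes not called 5 did. A match is a description of the letters and does not show that a factor binds there.

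**Figure D2:**
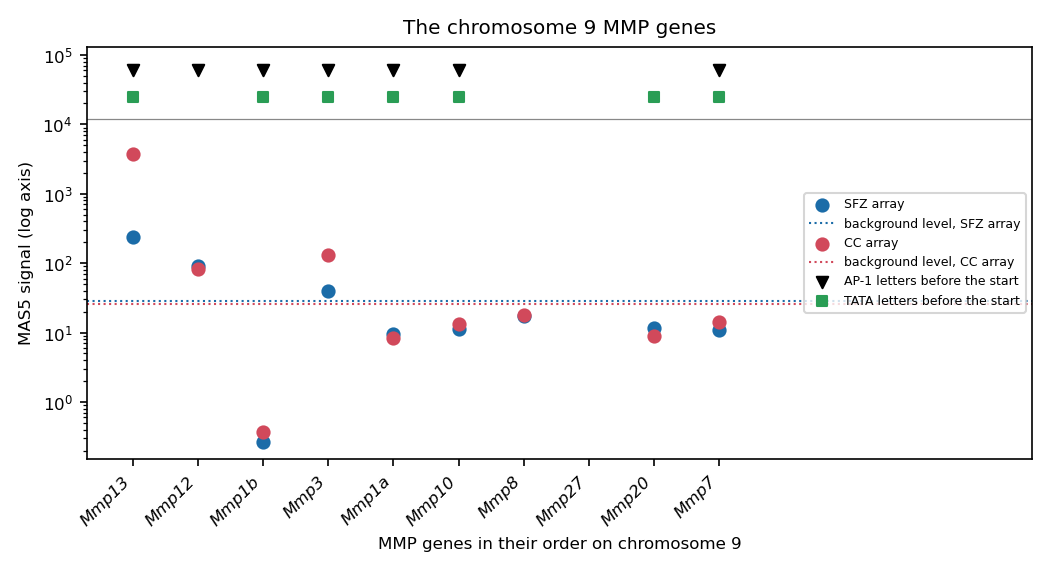
MAS5 signals on a log axis of the MMP genes of chromosome 9 in their order, 1 array per cell type, with the background levels as dotted lines. Triangles and squares in the strip at the top mark genes with the AP-1 and TATA letters in the 250 bases before a start, at a height that has no meaning. The AP-1 letters stand at *Mmp13* and *Mmp3*, higher in CC, at *Mmp12*, above background and not called, and at genes under background. *Mmp27* has no values.

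The gelatinases degrade denatured collagen and type IV collagen of basement membranes. *Mmp2* was at 396 in SFZ cells versus 1137 in CC, and its second probe set at 356 and 1038. The ratios toward CC were 2.88 and 2.91, so the probe sets differed by 0.02 on the log2 scale. *Mmp9*, the gelatinase of osteoclasts and neutrophils, was at 19.0 in SFZ cells, under background, and 40.7 in CC, at least 1.45-fold higher there, while its second probe set was under background on both arrays. Of 9 osteoclast genes 1 was called, in SFZ cells, with sums of 2034 for SFZ cells and 1089 for CC. *Ctsk*, a protease gene of osteoclasts that other mesenchymal cells also express, was at 1725 in SFZ cells versus 745 in CC, and *Acp5* at 58.5 and 96.4. Of the other osteoclast genes *Nfatc1* was at 163 in SFZ cells versus 135 in CC. *Tnfrsf11a* was at 40.6 in SFZ cells and under background in CC, and *Atp6v0d2* at 31.9 in CC and under background in SFZ cells. *Calcr*, *Oscar*, *Dcstamp* and *Ocstamp* were under background on both arrays. Of 9 neutrophil genes 3 were called in CC, and all 6 above background had the higher value there. Of all genes above background 7.90% were called in CC and 1.72% in SFZ cells, and 66.7% had the lower value in SFZ cells. The called neutrophil genes were under background in SFZ cells. They were *S100a8* at 373 in CC, at least 13.2-fold higher there, *S100a9* at 204, at least 7.24-fold, and *Ngp* at 144, at least 5.10-fold. *Lcn2*, with most of the summed signal of 2079 in SFZ cells and 3658 in CC, was at 2000.1 and 2799.6. *Mmp8*, a member of that list, was under background on both arrays. The part of these cells in the *Mmp9* signal was not tested.

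Among the membrane-type MMPs, *Mmp14*, encoding the activator of pro-MMP2 at the cell surface, was at 600.5 in SFZ cells versus 1342 in CC, 2.23-fold higher in CC. All 3 of its probe sets were called, with ratios from 2.01 to 2.23. This gene lies close to the threshold, and its call was lost with equal medians and with quantile normalization, at a ratio of 1.96 in both. *Mmp16*, a membrane-type gene of cartilage and brain, was at 206 in SFZ cells versus 222 in CC, and its 4 probe sets ran from 1.37-fold toward SFZ cells to 1.31-fold toward CC. The lipid-anchored *Mmp17* was at 31.5 and 43.4, and *Mmp24* at 30.9 and 39.4, just over background.

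Of the remaining MMPs, *Mmp23*, which encodes a membrane protein that is released when it is cleaved, was at 45.2 in SFZ cells versus 395 in CC. It was 8.75-fold higher in CC. Its second probe set, at 32.3 and 387, gave a ratio of 12.0. *Mmp19*, a basement membrane protease gene, was at 40.7 and 83.1, and its probe sets had ratios of 2.04 and 2.29 toward CC, but the CC signals were under the minimum of 100. *Mmp11*, encoding stromelysin-3, was at 38.8 in CC and under background in SFZ cells, at least 1.38-fold higher in CC. The MMPs above background were higher in CC in 11 of 12 genes, with *Mmp12* as the exception, and in 10 of 12 under either rescaling, where *Mmp16* turned, beside the 66.7% of all genes above background as deposited.

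**Figure D3:**
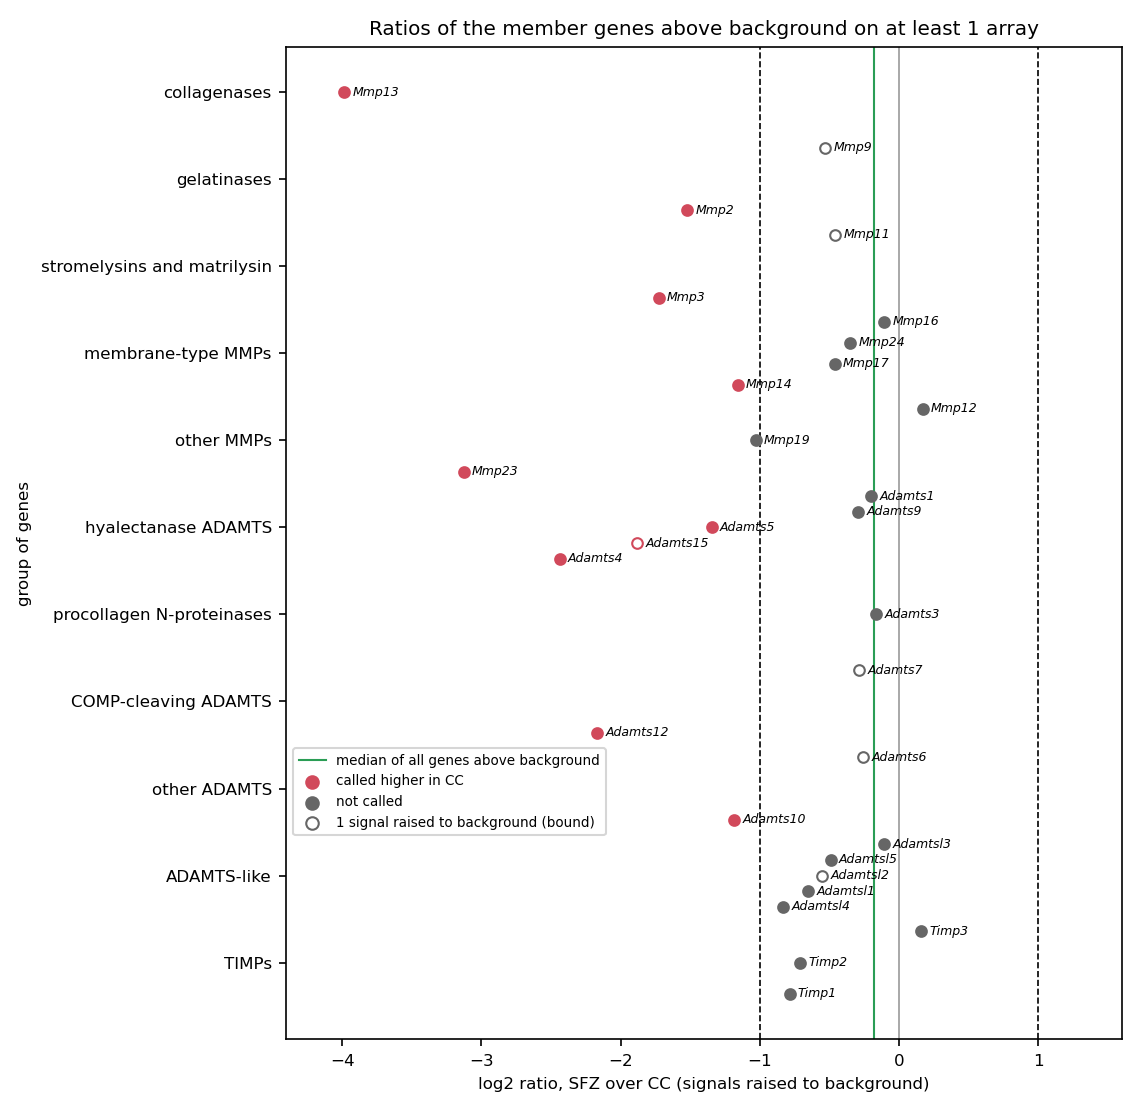
Log2 ratios of SFZ cells over CC by group of genes, 1 probe set per gene and 1 array per cell type, with signals raised to the background level. A ratio of 2 either way is dashed, and the green line marks the median of all genes above background, -0.18. Open points are bounds, and *Timp4*, which has no usable direction, is left out. No gene lies beyond the right dashed line.

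The hyalectanases of the ADAMTS family cleave aggrecan and versican, and 3 of 7 were called in CC. *Adamts5*, the main aggrecanase of mouse cartilage, was at 336 in SFZ cells versus 854 in CC. Its other probe sets above background were at 315 and 905 and at 133 and 350.2, and the 3 ratios ran from 2.54 to 2.87 toward CC. *Adamts4*, the other major aggrecanase, was at 43.0 in SFZ cells versus 233 in CC, 5.43-fold higher in CC. Its second probe set was at 37.1 in CC and under background in SFZ cells, at least 1.32-fold higher in CC. Aggrecan itself, *Acan*, was at 7772 in SFZ cells versus 5588 in CC, a ratio of 1.39, and versican, *Vcan*, was at 231 and 840.4 and was called higher in CC.

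*Adamts15*, a further aggrecan-cleaving enzyme, was at 104 in CC and 20.3, under background, in SFZ cells, at least 3.69-fold higher in CC. It was close to the minimum signal, and the call was lost after quantile normalization, where its CC signal was 94.2. *Adamts1* was at 669 in SFZ cells versus 770.3 in CC, a ratio of 1.15 toward CC that turned to 1.01 toward SFZ cells with quantile normalization, and *Adamts9* at 155 and 190.4. *Adamts8* and *Adamts20* were under background on both arrays. Neighbours on a chromosome differed. *Adamts1* and *Adamts5* have no protein-coding gene between them on chromosome 16, and only *Adamts5* was called. *Adamts15* and *Adamts8* are adjacent on chromosome 9, and only *Adamts15* was above background. Whether the neighbours' ratios differ could not be tested with 1 array per cell type.

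*Adamts12*, whose product cleaves cartilage oligomeric matrix protein, was at 40.0 in SFZ cells versus 179.8 in CC, 4.49-fold higher in CC. Its second probe set was under background on both arrays, and with the median over the probe sets the ratio was 1.99. *Adamts7*, which encodes its closest relative, was at 34.4 in CC and under background in SFZ cells, at least 1.22-fold higher in CC. *Comp*, the gene of the cleaved protein, was at 10284 and 8494. *Adamts10*, which acts on fibrillin microfibrils, was at 59.8 and 136, 2.28-fold higher in CC. This call was lost with quantile normalization at 1.85-fold, with 64 added to both signals at 1.62-fold and with the median over probe sets at 1.29-fold, and its second probe set was under background on both arrays. *Adamts3*, a procollagen N-proteinase gene of cartilage, was at 78.6 and 88.0, and turned toward SFZ cells under both rescalings. *Adamts6* was at 33.7 in CC and under background in SFZ cells, at least 1.20-fold higher in CC, and *Adamts16*, *Adamts18* and *Adamts19* were under background on both arrays.

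All 5 ADAMTS-like genes had the lower value in SFZ cells, 4 of them under either rescaling where *Adamtsl3* turned, and none was called. With 66.7% of all genes lower in SFZ cells as deposited, nothing is read from this count. *Adamtsl3* was at 354 in SFZ cells versus 381 in CC. *Adamtsl4*, needed for the fibres that hold the lens, was at 94.2 and 168, a ratio of 1.78 toward CC. *Adamtsl1* was at 36.3 and 57.1 and *Adamtsl5* at 41.2 and 57.9. *Adamtsl2*, which binds fibrillin and is a gene of geleophysic dysplasia, was at 41.3 in CC and under background in SFZ cells, at least 1.46-fold higher in CC.

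No inhibitor gene passed the thresholds. *Timp1* was at 2082 in SFZ cells versus 3593 in CC, a ratio of 1.73 toward CC. *Timp2*, whose product also takes part in the activation of pro-MMP2 by MMP14, was at 3181 and 5219, and its 5 probe sets above background had ratios from 1.51 to 1.64 toward CC. Its sixth probe set was under background on both arrays. *Timp3*, encoding the inhibitor that binds to the matrix and blocks ADAMTS4 and ADAMTS5, was at 7877 in SFZ cells versus 7061 in CC. All 4 of its probe sets were higher in SFZ cells, by 1.12 to 1.52-fold. *Timp1* and *Timp2* thus had lower and *Timp3* higher signals in SFZ cells, each under a ratio of 2. The difference between the inhibitors and the enzymes was not tested.

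The agreement of probe sets gives a view of the technical error. Over 8 member genes with at least 2 probe sets above background on both arrays, 25 probe sets in all, the SD of log2 ratios within a gene was 0.20. It was 0.31 over 5033 genes of the array. The probe sets of a gene share the RNA and the array, so this SD leaves out the spread between cultures and animals. Within a gene the ratios ranged over 0.85 on the log2 scale for *Mmp16* and over 0.45 or less for *Mmp2*, *Mmp14*, *Mmp19*, *Mmp23*, *Adamts5*, *Timp2* and *Timp3*.

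**Figure D4:**
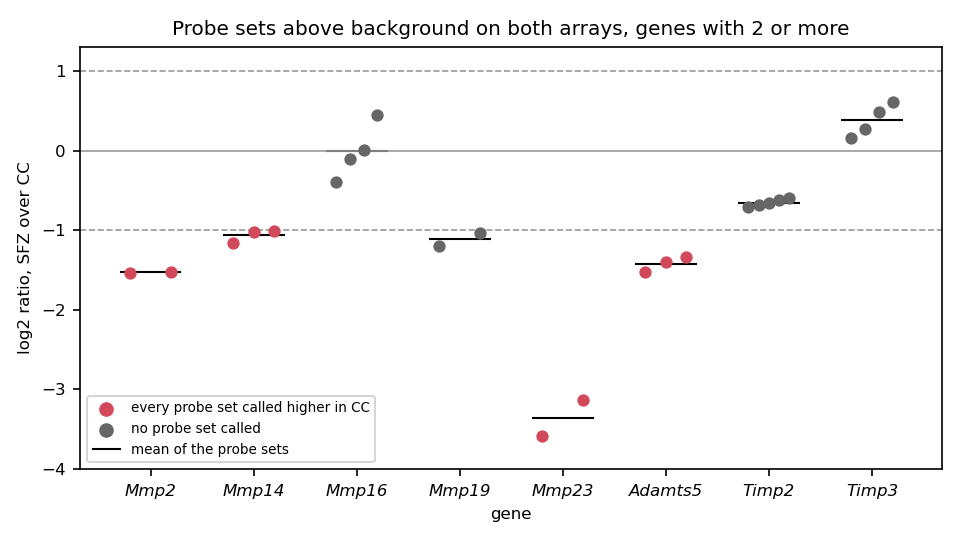
Log2 ratio, SFZ over CC, of each probe set above background on both arrays, for the 8 genes with 2 or more of them. Bars are means of the probe sets, dashed lines mark a ratio of 2 and red points are probe sets called higher in CC. The probe sets of *Mmp2* coincide near -1.5, and those of *Timp3* lie above 0.

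Other genes that act on these enzymes were read from lists, whose counts stand beside the 7.90% of all genes above background called in CC and the 1.72% called in SFZ cells. Calls of these lists were repeated with equal medians and quantile normalization after the values were seen. Of 16 genes for activators and cell-surface partners, 14 were above background, 3 were called in CC and 1 in SFZ cells, as under both rescalings. The 3 were *Plat*, the tissue plasminogen activator gene, with a CC signal of 246, at least 8.74-fold above SFZ cells, *Sdc1*, encoding syndecan-1, at 213 and 772, and the proprotein convertase gene *Pcsk5* at 107 and 318. *Klk8*, a kallikrein protease gene, was at 188 in SFZ cells versus 66.2 in CC. The proprotein convertase gene *Furin*, whose product activates membrane-type MMPs, was at 426 and 453. *Bsg*, encoding the MMP inducer basigin, was at 5190.1 and 5737, *Itgav* at 2030.3 and 2636, *Sdc4* at 2169 and 2391 and *Cd44* at 531 and 1007.

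Of 16 genes for other inhibitors and for clearance, 11 were above background, 1 was called in CC, near the share of all genes, and none in SFZ cells. *Thbs2*, whose product binds MMP2 for its clearance, was at 334 in SFZ cells versus 1658 in CC. *Reck*, a membrane-anchored MMP inhibitor gene, was at 1681 and 1301. *Lrp1*, the clearance receptor gene, was at 888 and 962. Not all genes of this list encode protease inhibitors, and this holds for its genes of highest signal too. Those were *Sparc* at 13025 and 12156, *Pcolce* at 7534 and 6873, *Thbs1* at 5079.7 and 8261 and *Pcolce2* at 3069 and 1723. With equal medians *Pcolce2* was called in SFZ cells. The median log2 ratio of this list was -0.03, against -0.18 over all genes.

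Of 20 genes for related metalloproteases, 15 were above background, 5 were called in CC and none in SFZ cells. The 5 were *Bmp1*, the procollagen C-proteinase gene, at 63.6 and 190.0, *Adam8* at 34.7 and 103, *Adam23* at 28.2 and 180.5, the neprilysin gene *Mme* at 183 and 375 and *Ece1* at 123 and 249. *Mme* and *Ece1* lost their calls under both rescalings and *Adam8* with quantile normalization, which left 3 and 2 genes called. *Adam9* was at 1391 and 2162, *Adam10* at 892 and 1461, *Adam17*, the sheddase gene for tumour necrosis factor, at 484 and 562, and *Pappa* at 813 and 497. The median log2 ratio of this list was -0.64.

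Of 24 genes for substrates, 22 were above background, 4 were called in CC and 2 in SFZ cells. The 4 were *Vcan*, the fibrillin gene *Fbn2* at 332 and 1385, the elastin gene *Eln* at 69.6 and 230.4 and *Nid1*, a basement membrane gene, at 501 and 2385. The 2 were *Prg4* and *Col10a1*. The counts were the same under both rescalings. *Fn1* was at 9358 in SFZ cells versus 10356 in CC and *Col1a2* at 8677 and 8919. The median log2 ratio of this list was -0.14.

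Of 22 genes for the induction of MMPs by cytokines and growth factors, all were above background, 7 were called in CC and none in SFZ cells. Members of the AP-1 complex were among the 7, with *Fos* at 188 in SFZ cells versus 447 in CC, *Fosl1* at 55.2 and 112, *Jun* at 332 and 751 and *Junb* at 127 and 300.3. The interleukin-1 receptor gene *Il1r1* was at 215 and 612, the hypoxia factor gene *Epas1* at 109 and 360.1 and *Egfr* at 172 and 491. With equal medians *Fosl1* and *Jun* lost their calls, at ratios of 1.78 and 1.98, and with quantile normalization all 4 AP-1 genes did, at 1.64 to 1.98, which left 5 and 3 genes called. *Fosl2* was at 1031 and 1317 and was not called. *Hif1a* was at 7246 and 6375, *Cebpb* at 4378 and 3543, *Tgfbr2* at 2375 and 3206 and the oncostatin M receptor gene *Osmr* at 2574 and 2945. The median log2 ratio of this list was -0.35. A part of these factors in the levels of the MMP genes was not tested.

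The call of each of the 10 genes was repeated under 8 other settings of scaling, thresholds and probe set choice. The looser thresholds were left out, as no call can be lost under them. Some of the 8 could not change a call either. Leaving out probe sets that match several transcripts could change none, as no called gene was read on such a probe set. Raising signals to background could change only the call of *Adamts15*. The median over probe sets could not change those of *Mmp3*, *Mmp13* and *Adamts15*, each with 1 probe set. *Mmp13* and *Mmp23* were called under all 8. *Mmp2*, *Adamts4* and *Adamts5* were called under 7, *Mmp3* and *Adamts12* under 6, *Mmp14* and *Adamts15* under 5 and *Adamts10* under 3. No member was called higher in SFZ cells under any of these settings.

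**Figure D5:**
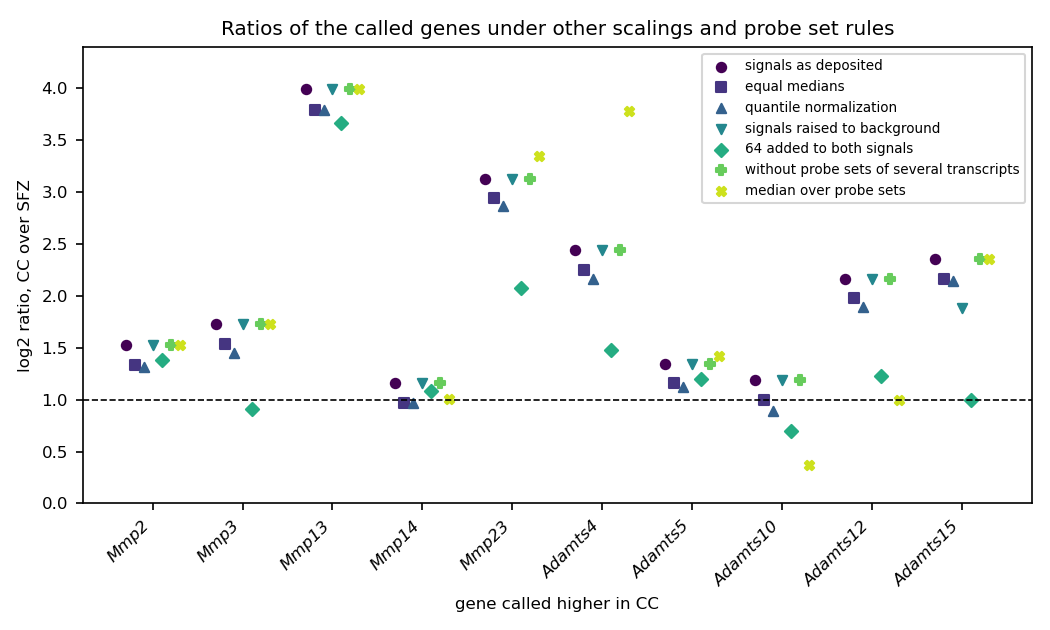
Log2 ratios of CC over SFZ cells for the 10 called genes under the signals as deposited and 6 other ways to scale the arrays or to combine probe sets. The dashed line marks a ratio of 2. *Mmp13* and *Mmp23* stay above the line throughout, whereas values of *Mmp3*, *Mmp14*, *Adamts10*, *Adamts12* and *Adamts15* lie under it in at least 1 setting.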

How the data were processed

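Total RNA, 100 ng for each cell type, was hybridised to 1 Affymetrix mouse array. The deposited values are the authors' MAS5 signals, intensities on a linear scale, MAS5 being named in the submitters' processing notes. No source used here gives the MAS5 version or the target to which arrays were scaled, and detection calls were not used. A different target common to both arrays would leave the ratios as they are and move the signals against the minimum of 100. Targets that differed between the arrays would shift all ratios together. The number of arrays limits the precision.

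Signals were used as deposited. Of 45037 probe sets other than 64 controls, 34945 had 1 gene symbol in the platform annotation, 932 had several and 9160 were unnamed here. All 78 member probe sets matched the RefSeq annotation of GRCm38.p6 through Entrez identifiers, and 0 symbols differed. Of the families' RefSeq genes, 9 had no probe set named for them alone and were not analysed here: *Adamts2*, *Adamts13*, *Adamts14*, *Adamts17*, *Mmp15*, *Mmp21*, *Mmp25*, *Mmp27* and *Mmp28*. The array names no genome build, and coordinates are those of the RefSeq promoter table. A search for the zinc-binding motif in the proteins was planned and not run.

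Each gene was represented by its probe set of highest mean log2 signal. Calls needed a signal over 100 and a ratio over 2, after the legend of the study, mirrored for CC. For a gene with its lower signal not above background, the fold is the brighter signal over the background level of the other array. Medians used signals raised to background and left out genes at or under it on both arrays. Named were members that were called or had a signal over 100, the leading members of each group, and of each other list the genes of highest signal. Further genes named from those lists were chosen after their values were seen. The members and lists were chosen with earlier results of these data known. Calling and scaling were tested on simulated data. Python 3.11.15, numpy 2.4.6, pandas 2.3.3 and matplotlib 3.10.9 were used. Rescaled calls of the other lists and the *Timp* median without *Timp4* were added after seeing the data.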

Additional observations from a re-analysis of the deposited data

How the results depend on the processing

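No paired analysis was possible because each cell type has 1 array. The count of 10 genes higher in CC stayed within 1.5 times under 9 of 12 alternatives, with 7 to 13 genes. A ratio over 1.5, a signal over 50 and a call on any probe set of a gene cannot lower it. Raising signals to background and leaving out probe sets that match several transcripts gave 10 and could change few calls. The count was 9 with equal medians and 7 with quantile normalization, with 64 added to both signals or with the median over probe sets. It was 6 with a ratio over 3, 6 with a signal over 200 and 6 where all probe sets of a gene were required, and these rules lower counts by construction. The count in SFZ cells was 0 throughout. All genes called in CC fell from 5.41% to 4.28% after scaling to equal medians and to 3.77% after quantile normalization, where 21.4% and 16.7% of the 42 genes were called, and all genes called in SFZ cells rose from 1.18% to 1.87% and 2.07%. With 64 added to both signals 16.7% of the 42 genes and 3.51% of all genes were called in CC. The family medians kept their sign under the 7 alternatives run and, for *Timp*, without *Timp4*. That of the *Adamts* genes ran from -1.27 with the background at percentile 99 to -0.29 with the median over probe sets, and that of the *Timp* genes from -0.71 to -0.13. With the background at percentile 99, 28 of the 42 genes were above it. At a ratio over 1.5, *Timp1*, *Timp2* and *Adamtsl4* were also called in CC. Signals near background limit *Mmp9*, *Mmp11*, *Adamts6*, *Adamts7* and *Adamtsl2* to small bounds.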
